A study of Mus musculus with 4 samples.

Results

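Matricellular and adhesive glycoproteins are secreted proteins that tie cells to the extracellular matrix or change how cells respond to it. The 10 genes described here were Fn1, Tnc, Tnxb, Sparc, Sparcl1, Thbs1, Thbs2, Postn, Vcan and Matn2. Every probe set that the platform annotation assigns to exactly 1 gene was taken where that gene was 1 of the 10, which gave 25 of the 45037 probe sets on the array that are not controls. Each probe set is a group of short probes read as 1 value. No measured value entered the choice of probe sets, but the 10 genes were chosen with earlier results of these data known. Vcan was read by 8 probe sets, Sparc and Thbs2 by 3 each, Fn1, Tnc, Thbs1 and Matn2 by 2 each, and Tnxb, Sparcl1 and Postn by 1 each.

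The RNA came from basal cells sorted out of mouse mammary glands, a gate that the labels describe as enriched in mammary stem cells and as holding myoepithelial cells and their progenitors too. All mice had the mixed background B66SJL/HEV/J and carried MMTV-Wnt1, a transgene in which a mammary tumour virus promoter drives the ligand Wnt1 in mammary epithelium, so both groups share it and no array without it was analysed here. The control (CAS) group ate a diet with casein as its protein, and the SPI group ate soy protein isolate. Each diet had 2 arrays. The labels give no age and leave unsaid whether both samples of a diet are from different animals or litters, so p-values here take in only the spread among these samples, which may be technical.

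Fibronectin (Fn1) forms fibres on which cells pull through integrins, and many other matrix proteins assemble on it. Tenascins, thrombospondins, SPARC proteins and periostin are matricellular: they add little strength to the matrix but modulate adhesion, growth factor signals and collagen assembly. Versican (Vcan) is a large proteoglycan that binds hyaluronan, and matrilin 2 (Matn2) is an adaptor that links matrix fibres to each other. In the mammary gland most such genes are known from stromal fibroblasts and vessel walls, and basal epithelial cells also make some of them.

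The deposited values were log2 expression values that had been centred so that the median of the 4 arrays was 0 for each probe set. A value is therefore a position relative to the other arrays and not a level, and levels cannot be compared between genes. Where the 2 diets separate, the inner CAS value and the inner SPI value are mirror images by construction. The step between the digits of the values still places a probe set in a coarse level class on the log2 scale before centring, 8 to 16, 4 to 8, 2 to 4 or under 2, set by its lowest array. All 6 actin and Gapdh controls fell in the class 8 to 16, against 1 of 43 probe sets of olfactory receptors, of which 9 reached level 4, so a class does not establish expression. Of the probe sets in the class 8 to 16, 16.3% would by their digits also have passed for a still higher class. That is a measure of how often a probe set passes for a class above its own by chance. It is not the share of a class that is placed too high, which was not measured. The medians of the 4 arrays lay between -0.0096 and 0.0092.

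Among the 10 genes the diets differed in both directions. Fn1, Tnc and Sparcl1 fell on the soy diet and Vcan rose, each both as a probe set and as a gene. One Thbs2 probe set fell, and Postn fell in the test of genes only. Sparc, Thbs1, Tnxb and Matn2 did not pass either test. Over all 45037 probe sets tested one by one, 676 (1.5%) passed at an adjusted p under 0.05 (limma, two-sided, SPI minus CAS, Benjamini-Hochberg), 564 lower and 112 higher in SPI. Of the 25 member probe sets 4 fell, where the share of all probe sets that fell was 1.25%, and 2 rose, where that share was 0.249%. Genes were then tested with 1 value each, averaged over those probe sets of the gene that shared its highest level class, and 669 (3.68%) passed. Of the 10 genes 4 fell (2.89% of all 18193 genes did) and 1 rose (0.786% of all genes did). The median difference of the 10 genes was -0.50 on the log2 scale, and that of all genes 0.022.

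Both SPI arrays lay below both CAS arrays in 11 of the 25 probe sets and above them in 10, and the diets overlapped in 4. Over all probe sets the shares were 20.5% below and 27.9% above, 48.4% together. As genes, 6 of the 10 had both SPI arrays below (22.4% of all genes did), 3 had both above (29.4%), and Sparc overlapped, where 51.8% of all genes did not. With any 1 of the 4 arrays left out, limma called 0 of the 45037 probe sets and 0 of the members (each replicate of CAS and of SPI in turn), with 4882 to 6513 probe sets at an unadjusted p under 0.05. Such a fit has 1 residual degree of freedom, takes the lone array of a diet to vary like those of the other, and so says little of stability; as genes Fn1 then ran from -1.35 to -1.42 and Vcan from 0.62 to 0.70. After each array was centred on its bacterial and phage hybridization controls, the median of all probe sets moved by 0.17 to 0.19, and 3290 probe sets passed, 738 lower and 2552 higher, of which members made up 5 and 6.

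**Figure D1:**
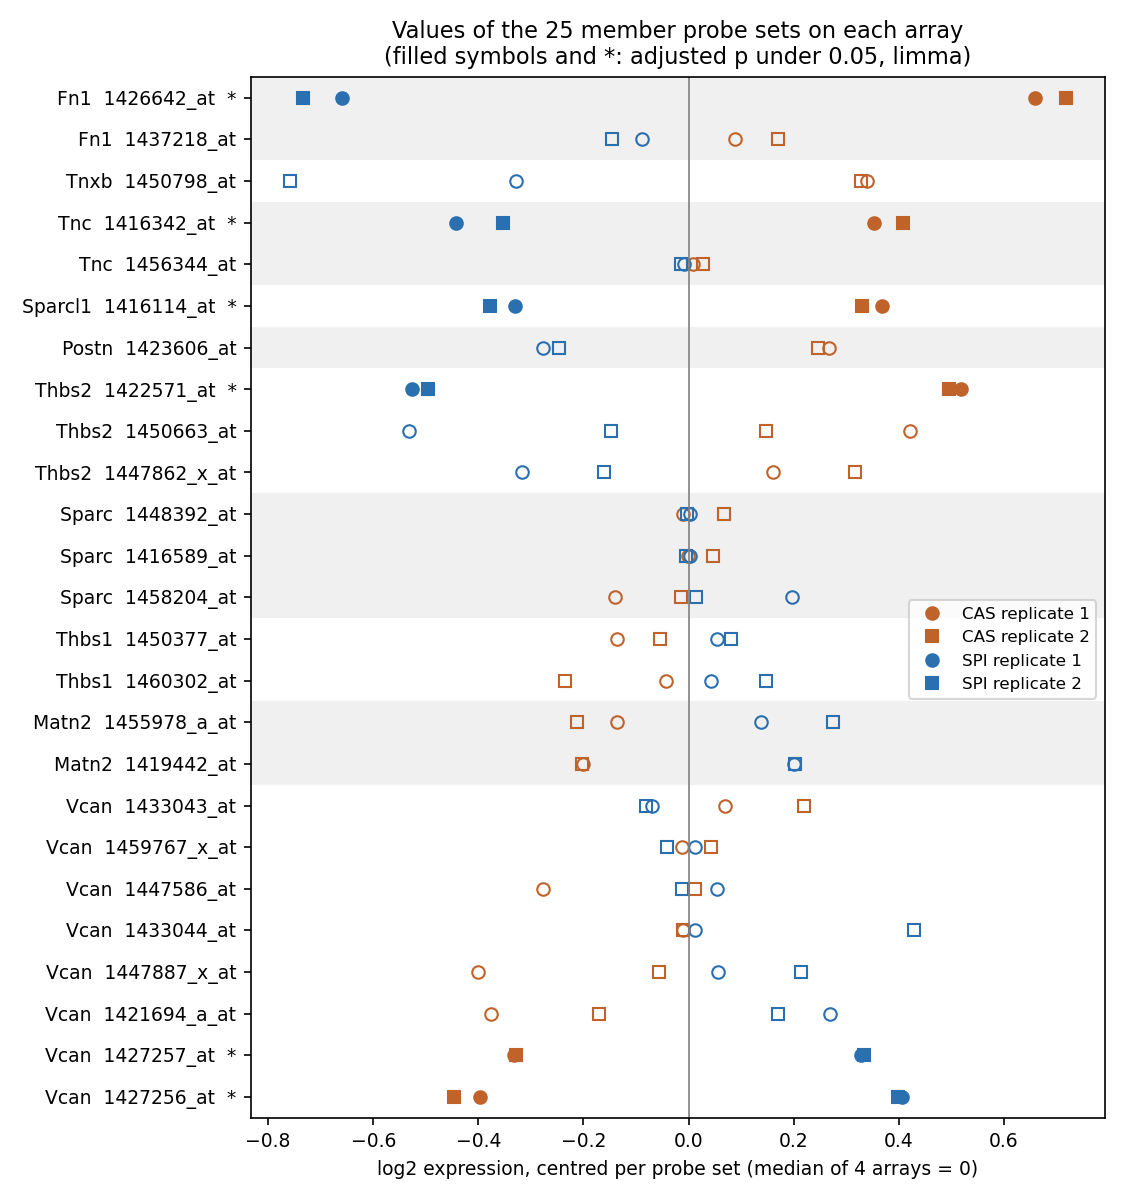
Centred log2 values (x axis) of the 25 member probe sets (rows, grouped by gene) on the 2 CAS arrays (brown) and the 2 SPI arrays (blue), circles for replicate 1 and squares for replicate 2. Filled symbols mark the 6 probe sets that passed the test: Fn1, Tnc, Sparcl1 and Thbs2 with SPI on the left, and 2 of Vcan with SPI on the right.

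The promoters of members that moved apart are shown first, since 3 genes with a lower signal on soy, Tnc, Thbs2 and Postn, can be set beside Vcan, which had a higher one. The RefSeq table (build GRCm38.p6) held windows of 300 bases, 250 before to 50 after a transcript start, for 6 of the 10 genes, 8 windows in all. It held none for Fn1, Sparcl1, Thbs1 and Matn2. For Tnc, Thbs2, Postn and Vcan 1 window each is printed, on the strand of the gene. Capitals mark every match, on either strand, to 6 motifs. These were the general promoter boxes TATAAA and CCAAT, the GC-rich box GGGCGG bound by Sp1, the AP-1 site TGANTCA, the core CTTTGA of sites of the TCF/LEF factors in Wnt signalling, and the CArG box by its name.
Tnc, chr4:64046887-64047186, minus strand: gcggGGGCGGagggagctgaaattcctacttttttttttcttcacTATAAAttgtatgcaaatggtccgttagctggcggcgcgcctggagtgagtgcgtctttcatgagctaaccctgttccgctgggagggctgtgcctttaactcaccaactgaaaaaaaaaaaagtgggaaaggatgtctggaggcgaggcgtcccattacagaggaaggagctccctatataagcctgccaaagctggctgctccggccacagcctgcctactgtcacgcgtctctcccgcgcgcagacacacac
Thbs2, chr17:14694213-14694512, minus strand: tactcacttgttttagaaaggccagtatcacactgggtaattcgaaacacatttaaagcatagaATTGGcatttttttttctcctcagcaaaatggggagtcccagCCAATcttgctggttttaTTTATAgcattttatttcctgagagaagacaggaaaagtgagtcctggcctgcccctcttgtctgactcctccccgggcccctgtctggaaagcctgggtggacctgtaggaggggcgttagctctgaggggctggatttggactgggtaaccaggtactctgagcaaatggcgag
Postn, chr3:54360857-54361156, plus strand: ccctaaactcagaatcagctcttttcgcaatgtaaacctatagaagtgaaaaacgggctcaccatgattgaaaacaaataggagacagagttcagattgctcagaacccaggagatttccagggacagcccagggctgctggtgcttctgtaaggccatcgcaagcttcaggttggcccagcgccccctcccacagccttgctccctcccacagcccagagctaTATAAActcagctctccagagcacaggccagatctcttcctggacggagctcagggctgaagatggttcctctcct
Vcan, chr13:89742463-89742762, minus strand: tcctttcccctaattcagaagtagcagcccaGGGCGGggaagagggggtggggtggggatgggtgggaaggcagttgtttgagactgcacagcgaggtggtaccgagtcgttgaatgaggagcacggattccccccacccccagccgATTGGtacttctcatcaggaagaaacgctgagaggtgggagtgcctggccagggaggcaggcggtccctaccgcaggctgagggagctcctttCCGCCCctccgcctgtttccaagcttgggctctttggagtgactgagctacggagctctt

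Each of the 3 printed windows of genes with a lower signal held TATAAA once and that of Tnxb, whose signal was also lower without passing, held none. It is a motif found in 13.6% of all 32851 such windows. The Vcan window, the Sparc window and the other window of Postn, which starts upstream, held none either. That each of the 3 held it thus depends on which Postn window was printed. In Postn TATAAA stood at position -26 from the transcript start, in Thbs2 at -126 on the opposite strand and in Tnc at -205. Only these exact letters were sought. A near match such as tatataag, which stands nearer the start in the Tnc window, is therefore unmarked. The Vcan window held GGGCGG at 2 places (35.7% of all windows hold it) and CCAAT once (37.4%), the Tnc window held GGGCGG once, and the Thbs2 window held CCAAT at 2 places. CTTTGA (16% of all windows) and the CArG box (1.63%) were in none of the 8 member windows, which says only that those letters were not in these windows. TGANTCA (7.81%) was in the Tnxb window alone among the 8. The Tnc and Vcan windows held 16 and 12 CG pairs and those of Thbs2 and Postn 4 and 5, where the median window held 7. These matches are descriptions of the sequence and were not set against the diet difference by any test.

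Fibronectin had the lowest difference of the 10 genes. The Fn1 probe set 1426642_at was at 0.66 and 0.72 in CAS and at -0.66 and -0.73 in SPI. Both CAS arrays were high and both SPI arrays low, with a gap many times the spread within a diet. The difference was -1.38 on the log2 scale (95% interval -1.58 to -1.19, SE 0.078, limma adjusted p = 0.00664 with n = 2 arrays per diet), and as a gene Fn1 was 2.61-fold lower in SPI (2.31 to 2.95), 79th from the lowest of 18193 genes. The other Fn1 probe set, 1437218_at, lay in the class 2 to 4. It read 0.089 and 0.17 in CAS and -0.089 and -0.15 in SPI, with a difference of -0.25 that did not pass (adjusted p = 0.212). The probe sets thus shared a direction but not a size, and with the mean of both the gene was at -0.82 (adjusted p = 0.00597).

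The tenascins are large oligomeric proteins, Tnc a modulator of adhesion made in development, wounds and tumours, and Tnxb an organiser of collagen fibrils in loose connective tissue. Tnc probe set 1416342_at was at 0.35 and 0.41 in CAS and at -0.44 and -0.35 in SPI. The diets did not overlap, and Tnc fell by 0.78 on the log2 scale (SE 0.079, adjusted p = 0.0247), which as a gene was 1.71-fold (1.51 to 1.94). The other Tnc probe set, 1456344_at in the class 2 to 4, stayed within -0.015 to 0.027 on all 4 arrays and had a difference of -0.030, or 0.14 after centring on the hybridization controls. With the mean of both, Tnc was at -0.40 as a gene and passed (adjusted p = 0.0351). Tnxb, read by 1450798_at in the class 8 to 16, was at 0.34 and 0.33 in CAS and at -0.33 and -0.76 in SPI. Both SPI arrays were low, but they lay 0.43 apart, more than in any other member probe set of that class. Its difference of -0.88 (95% interval -1.27 to -0.49) did not pass (adjusted p = 0.0776 as a probe set and 0.0514 as a gene). It passed as a gene after centring on the hybridization controls, at -0.71 (adjusted p = 0.0120), and after centring on array medians, at -0.89 (adjusted p = 0.0456), and it was -0.66 without SPI replicate 2 and -1.09 without SPI replicate 1.

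The thrombospondins bind cell surfaces and growth factors, and Thbs1 and Thbs2 both restrain the growth of vessels. Their differences lay on opposite sides of 0. Thbs2 probe set 1422571_at was at 0.52 and 0.50 in CAS and at -0.53 and -0.50 in SPI, and it fell by 1.02 on the log2 scale (SE 0.073, 95% interval -1.20 to -0.83, adjusted p = 0.0107). Probe set 1450663_at, which the annotation ties to the same source sequence, was at 0.42 and 0.15 in CAS and -0.53 and -0.15 in SPI, a difference of -0.62 that did not pass (adjusted p = 0.163). The wider spread within each diet goes with its larger SE of 0.164. The Thbs2 probe set 1447862_x_at, of a kind that can bind related transcripts, gave -0.48 (adjusted p = 0.114). It alone was in the class 8 to 16 and so set the gene value of -0.48, which did not pass (adjusted p = 0.0692), whereas with the mean of all 3 the gene was at -0.71 and passed (adjusted p = 0.0170). All 3 Thbs2 probe sets had both SPI arrays below both CAS arrays.

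Both Thbs1 probe sets lay the other way and in the class 8 to 16. Probe set 1450377_at was at -0.14 and -0.055 in CAS and at 0.055 and 0.080 in SPI, and 1460302_at was at -0.042 and -0.23 in CAS and at 0.042 and 0.15 in SPI. Neither passed, at 0.16 and 0.23 on the log2 scale (adjusted p = 0.352 and 0.314). The 95% interval of the Thbs1 gene value, 0.20, ran from 0.026 to 0.37 and that of Thbs2 from -0.71 to -0.24. The difference between the 2 genes was not tested. After centring on the hybridization controls Thbs1 as a gene was at 0.37 (adjusted p = 0.0484), and Thbs2 at -0.30.

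SPARC and its relative Sparcl1 (hevin) share a collagen-binding region, and SPARC is needed for the deposition of fibrillar collagen. Sparcl1, read by 1416114_at, was at 0.37 and 0.33 in CAS and at -0.33 and -0.38 in SPI. The diets stood well apart, and Sparcl1 fell by 0.70 on the log2 scale (SE 0.074, adjusted p = 0.0266), 1.63-fold as a gene (1.45 to 1.83). Sparc gave no such separation. Its probe sets 1416589_at and 1448392_at, both in the class 8 to 16 and tied to the same source sequence, spanned only -0.0049 to 0.046 and -0.011 to 0.067 over the 4 arrays, and the diets overlapped in both. Their differences were -0.023 and -0.028 (adjusted p = 0.911 and 0.892), and the 95% interval of the Sparc gene value, -0.19 to 0.14, leaves out a fall as large as that of Sparcl1. After centring on the hybridization controls the Sparc gene value turned to 0.15, still short of the threshold (adjusted p = 0.265). The remaining Sparc probe set, 1458204_at in the class 4 to 8, was at 0.18 and did not pass (adjusted p = 0.41).

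Periostin (Postn), a fasciclin-domain protein that promotes collagen crosslinking and binds integrins, was at 0.27 and 0.25 in CAS and at -0.28 and -0.25 in SPI. Within each diet its arrays lay no more than 0.032 apart. The difference of -0.52 (SE 0.073) missed the threshold as a probe set (adjusted p = 0.0504) and passed as a gene, 1.43-fold lower (1.28 to 1.60, limma adjusted p = 0.0227). That call was lost after centring on the hybridization controls, where the gene was at -0.35 (adjusted p = 0.0510).

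**Figure D2:**
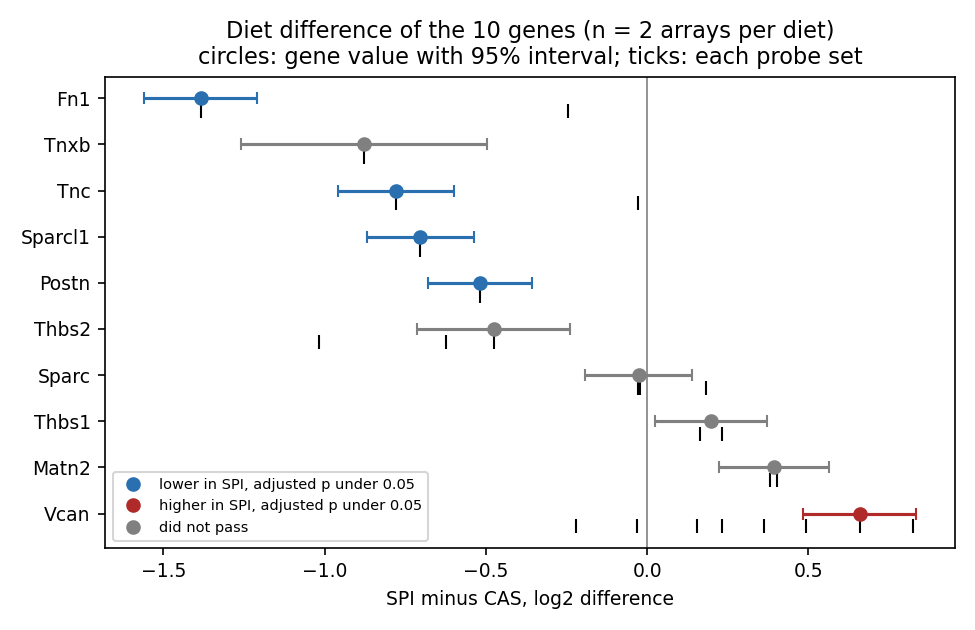
Difference SPI minus CAS on the log2 scale (x axis) of the 10 genes (rows), n = 2 arrays per diet. Circles are gene values with 95% limma intervals, blue for the 4 that fell, red for Vcan, which rose, and grey for the 5 that did not pass; black ticks are single probe sets, which for Vcan run from -0.22 to 0.82.

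Versican was the member that rose. Probe set 1427256_at was at -0.40 and -0.45 in CAS and at 0.41 and 0.40 in SPI, and 1427257_at, tied to the same source sequence, was at -0.33 on both CAS arrays and at 0.33 on both SPI arrays. Both SPI arrays were high and both CAS arrays low in each. The differences were 0.82 (SE 0.074, adjusted p = 0.0188) and 0.66 (SE 0.072, adjusted p = 0.0284) on the log2 scale. The gene value of Vcan averaged the 2 probe sets in the class 8 to 16, 1427256_at, which passed, and 1421694_a_at, which did not. Probe set 1427257_at lay in the class 4 to 8 and did not enter it. That gene value rose 1.58-fold on soy (1.40 to 1.78), and limma gave it an adjusted p of 0.0155. It was 46th from the highest of 18193 genes. Probe set 1421694_a_at was at -0.38 and -0.17 in CAS and 0.27 and 0.17 in SPI. It had the direction of the others but a wider spread, and its difference of 0.49 did not pass (adjusted p = 0.11). Probe set 1447887_x_at in the class 4 to 8 was at 0.36 (adjusted p = 0.272).

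The remaining 4 Vcan probe sets lay under level 4. Their differences ran from -0.22 to 0.23, and none passed. In 1433044_at, the probe set at 0.23, both CAS arrays were at -0.012 and SPI replicate 1 at 0.012, and SPI replicate 2 stood apart at 0.43. Its partner from the same source sequence, 1433043_at, had both SPI arrays below both CAS arrays (-0.22). The call for the gene therefore rests on the brighter probe sets, and with the mean of all 8 Vcan was at 0.31 and did not pass (adjusted p = 0.0923).

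Matrilin 2 had a signal that lay higher in SPI but did not pass. Probe set 1419442_at was at -0.20 on both CAS arrays and at 0.20 on both SPI arrays, and 1455978_a_at was at -0.14 and -0.21 in CAS and 0.14 and 0.28 in SPI. The diets did not overlap in either. The differences were 0.40 and 0.38 on the log2 scale (adjusted p = 0.0822 and 0.132), and the gene, at 0.39 (95% interval 0.22 to 0.56), missed the threshold (adjusted p = 0.0514). After centring on the hybridization controls it was at 0.56 and passed (adjusted p = 0.0145).

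**Figure D3:**
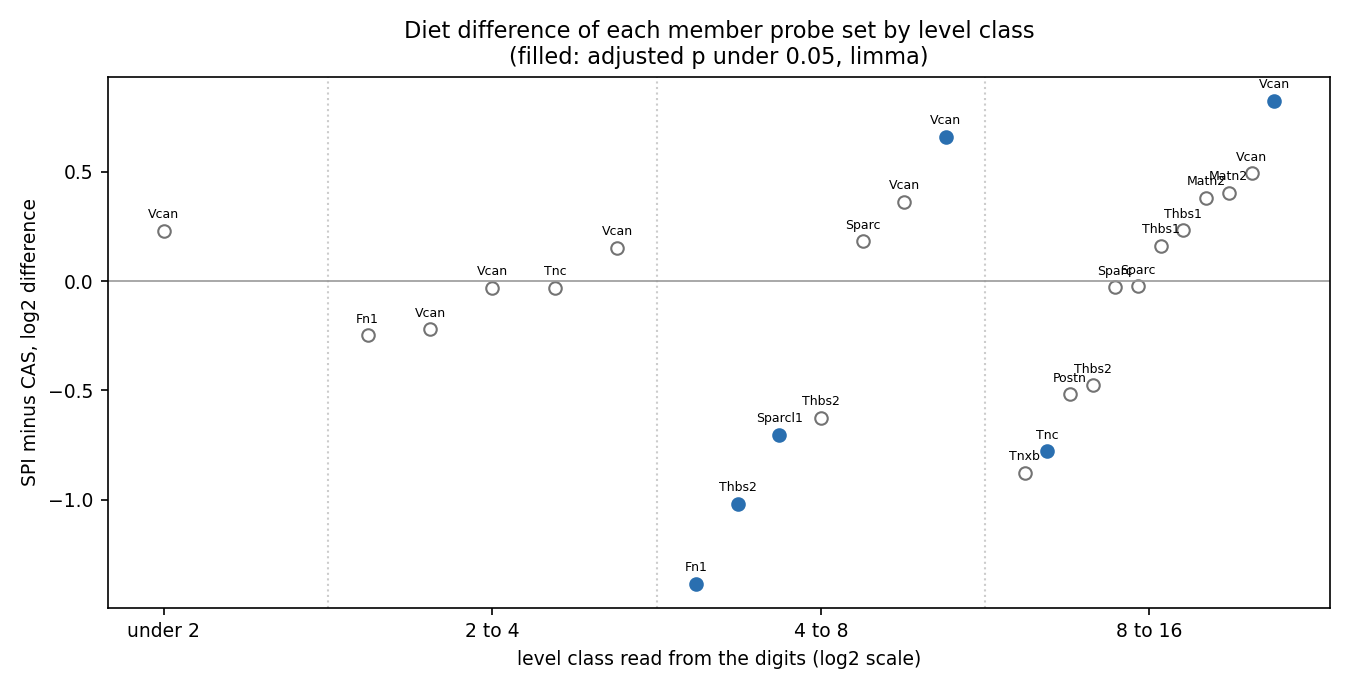
Difference SPI minus CAS on the log2 scale (y axis) of each member probe set, labelled by gene, in the 4 level classes (x axis, in order of the difference within a class). Filled circles passed the test: 4 of 7 in the class 4 to 8, 2 of 12 in the class 8 to 16, and 0 of the 6 under level 4.

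All 6 calls came from the 19 member probe sets at level 4 or above. Under level 4 limma called 0 of the 6 members, of which 2 had an unadjusted p under 0.05, and 0.505% of all 16049 probe sets there, so the 0 is near the background and says nothing particular to the members. The weaker second readings of Fn1 and Tnc were both among those 6. A fall can itself lower a class, since the lowest array sets it: Fn1 1426642_at and Thbs2 1422571_at were classed at 4 to 8 with SPI arrays about 1 log2 unit or more below the CAS arrays. Among all 28988 probe sets at level 4 or above, 1.71% fell and 0.338% rose in the same test.

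Genes related to the members, 34 of 35 listed ones being measured, did not move one way. Of the 34, 3 fell (2.89% of all genes did) and 3 rose (0.786% did). The median was -0.090 on the log2 scale (-0.051 without CAS replicate 2), or 0.082 after centring on the hybridization controls, where that of all genes was 0.19. Vtn, the adhesive protein vitronectin, fell 2.75-fold (2.26 to 3.35, limma adjusted p = 0.00836). It was at 0.65 and 0.68 in CAS and at -0.94 and -0.65 in SPI. Smoc2, of the SPARC family, fell 1.87-fold (adjusted p = 0.0236), and Nid1, which joins laminin to type IV collagen in basement membranes, 1.52-fold (adjusted p = 0.0236). The 3 that rose were named after their values were seen: Ccn4, a matricellular protein and a target of Wnt signalling, at 0.45, and the SPARC-related proteoglycans Spock2 and Spock1, both at 0.49. No other thrombospondin, tenascin or matrilin of the list passed: Thbs3, Thbs4, Comp, Tnn, Tnr, Matn1, Matn3 and Matn4 lay between -0.29 and 0.22. After centring on the hybridization controls Matn1 passed as higher (0.39, limma adjusted p = 0.0453), and of the 34 relatives 3 fell and 7 rose. In that fit 516 of all 18193 genes fell and 2250 rose.

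Most receptors that bind the members did not pass the test, nor did most genes (2.89% of all genes fell and 0.786% rose). Of 21 measured, 1 fell and 1 rose, with a median of -0.037, which became 0.13 after centring on the hybridization controls, and -0.090 without CAS replicate 1 or -0.076 without SPI replicate 1. Itgb6, an epithelial integrin chain for fibronectin and tenascin C, was at 0.41 and 0.35 in CAS and at -0.35 and -0.54 in SPI, and fell 1.77-fold (1.52 to 2.08, limma adjusted p = 0.0166). Itga8, an integrin chain of contractile cells that binds fibronectin and tenascin C, was at -0.24 and -0.21 in CAS and at 0.25 and 0.21 in SPI, and rose 1.37-fold (1.23 to 1.53, adjusted p = 0.0315). Sdc1, a heparan sulfate proteoglycan of epithelial surfaces, was at -0.27 and did not pass (adjusted p = 0.0994). Chosen after their values were seen, the main fibronectin receptor chains Itga5, at -0.037, and Itgb1, at 0.16, did not pass, nor did the thrombospondin receptors Cd36 (-0.45) and Cd47 (-0.23). After centring on the hybridization controls 1 of the 21 receptors fell and 2 rose.

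Among 16 measured proteases and partners that act on these proteins, 2 fell (2.89% of all genes did) and 1 rose (0.786% did). The median was -0.036, or 0.14 after centring on the hybridization controls, and it ran from -0.089 without SPI replicate 2 to 0.022 without CAS replicate 1. Mmp3, the protease stromelysin 1, was at 0.92 on both CAS arrays and at -1.10 and -0.92 in SPI, and fell 3.80-fold (3.27 to 4.41, limma adjusted p = 0.00275). Of the listed proteases known to cut versican, Adamts4 and Adamts9 passed, in opposite directions. Adamts4 was at 0.64 and 0.71 in CAS and at -0.68 and -0.59 in SPI, and fell 2.48-fold (2.19 to 2.81, adjusted p = 0.00345). Adamts9 was at -0.19 and -0.30 in CAS and at 0.19 and 0.31 in SPI, and rose 1.41-fold (1.22 to 1.62, adjusted p = 0.0460). Adamts5 (-0.56), Adamts1 (0.38), Adamts15 (-0.22) and Adamts20 (0.43), listed with them, did not pass. After centring on the hybridization controls Adamts1 (0.55, limma adjusted p = 0.0278) and Adamts20 (0.60, adjusted p = 0.0222) passed as higher. Of the 16, 2 then fell and 4 rose.

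**Figure D4:**
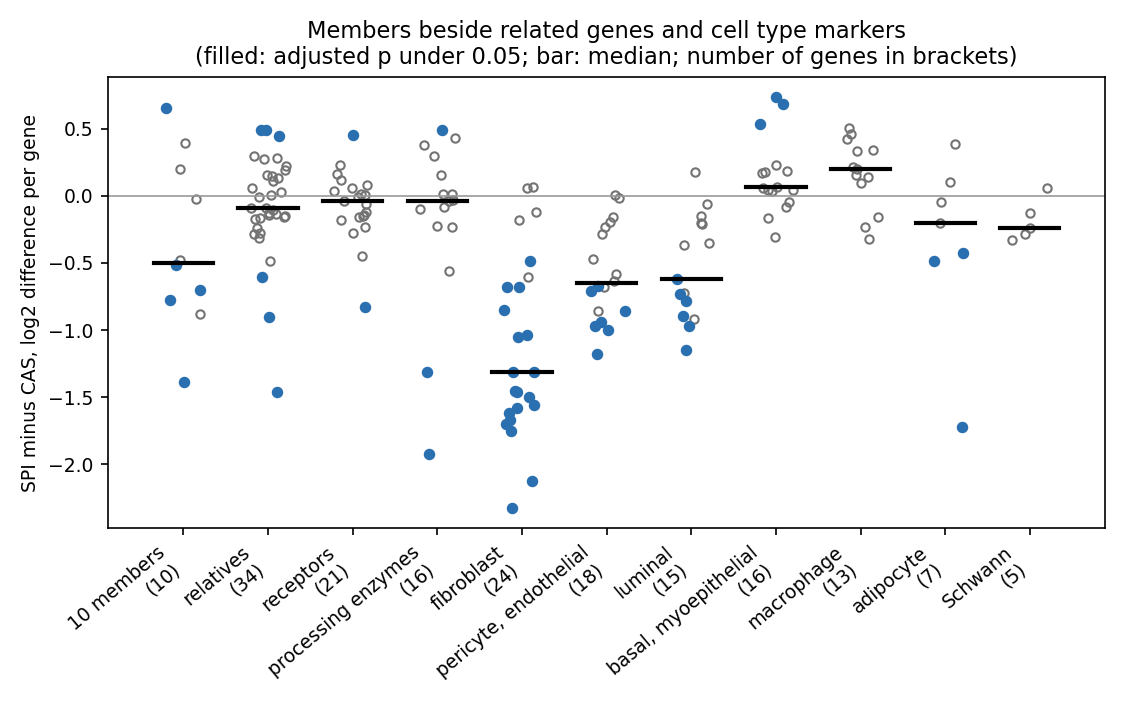
Difference SPI minus CAS on the log2 scale (y axis) of single genes in the 10 members, 3 lists of related genes and 7 lists of cell type markers (x axis, with the number of genes measured). Filled circles passed the test and bars are medians, from -1.31 for fibroblast markers to 0.20 for macrophage markers.

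Markers of other cell types differed between the same arrays. Over all genes 2.89% fell and 0.786% rose. Of 24 fibroblast markers 19 fell and 0 rose (limma, n = 2 arrays per diet), with a median of -1.31; the list's medians were 0.65 and 0.56 in CAS and -0.65 and -0.60 in SPI. Lum, Ogn and Dpt, the 3 with the smallest p, fell 5.01-fold, 4.36-fold and 3.37-fold. Of 18 pericyte and endothelial markers 7 fell and 0 rose (median -0.65), among them Cdh5 of endothelium (-0.94), the pericyte gene Rgs5 (-0.997) and Notch3 of mural cells (-0.97). Of 15 luminal markers 6 fell and 0 rose (median -0.62), with Aldh1a3 at -1.15, Ehf at -0.97 and Rab25 at -0.79. Of 7 adipocyte markers 3 fell, Lpl (-1.72), Car3 (-0.49) and Fabp4 (-0.43), and 0 rose. Their median was -0.21 (-0.42 without CAS replicate 1, -0.066 without CAS replicate 2), and Adipoq, chosen after its values were seen, was at 0.38 with both SPI arrays above. After centring on the hybridization controls Car3 and Fabp4 did not pass (adjusted p = 0.0576 and 0.0942), and Adipoq did (0.56, adjusted p = 0.0102).

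Of 13 macrophage markers 0 passed in limma, where 3.68% of all genes did (2.89% lower and 0.786% higher). Both SPI arrays lay above both CAS arrays in 8, where 29.4% of all genes did, and below in 2, where 22.4% did. C1qc was at 0.42, Cd14 at -0.32 and Cd68 at 0.51, and the median was 0.20 (0.075 without CAS replicate 1, 0.33 without CAS replicate 2). After centring on the hybridization controls 5 of the 13 passed as higher: C1qa, C1qb, C1qc, Cd68 and Adgre1. Of 5 Schwann cell markers 0 passed, with a median of -0.24 and Cdh19 at -0.28, Mbp at -0.24 and S100b at -0.33. Of 16 basal and myoepithelial markers 3 rose, Oxtr (0.68), Krt15 (0.73) and Trp63 (0.54), and 0 fell; after centring on the hybridization controls 5 rose. The other 13 lay between -0.31 (Procr) and 0.23 (Krt14), and the list's median was 0.064 (0.10 without CAS replicate 2).

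The labelled cell type could not be checked by level. All 16 basal markers lay at level 4 or above, but so did 22 of 24 fibroblast, 15 of 18 pericyte and endothelial, 15 of 15 luminal and 12 of 13 macrophage markers, and a class does not establish expression. Since the values were centred, no marker has a level that could be called 0. Fn1, Tnc, Sparcl1 and Postn passed as genes and were lower on the SPI arrays. Thbs2 was lower too, where probe set 1422571_at passed but the gene did not, and Tnxb was lower without passing. On those arrays the fibroblast, pericyte and endothelial, and luminal markers also had negative medians. The adipocyte (-0.21) and Schwann cell (-0.24) markers had negative medians too. Vcan was higher on the SPI arrays, on which 3 of 16 basal markers rose and most macrophage markers lay higher without passing. The members Thbs1 (0.20) and Matn2 (0.39) also lay higher without passing, and Sparc, whose diets overlapped, was at -0.026. The part of any of these cells in the members' differences was not tested. In bulk RNA, fewer cells of a type and less RNA per cell cannot be told apart.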

How the data were processed

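RNA from 4 samples was labelled with biotin and hybridized to Affymetrix arrays, per the labels' protocols. The submitters' processing notes name GCOS and RMA; their versions are not given in the sources used here. Values in the deposited table are log2, as RMA gives. Each probe set's 4 values had a median within 5e-07 of 0, a centring that no label records, so depth does not apply and the number of arrays limits the precision.

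Of 45101 probe sets 64 were controls. Of the other 45037, 34945 had 1 gene in the platform annotation, 932 several and 9160 were not listed. Symbols were updated through gene IDs of GRCm38.p6, which gave 18193 genes. Level classes were read from whether all 4 values were whole multiples, to within 0.1 of a step, of the step of single-precision numbers.

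R 4.3.3 with limma 3.58.1 gave the tests (lmFit, eBayes, no block, 2 residual degrees of freedom), once over all probe sets and once over all genes, and the procedure was tested on simulated data. In these tests the variance prior did not follow intensity, since centred values give it only as a coarse level class. The members and lists were chosen with earlier results of these data known. By rule, named genes were all members and the 3 of each list with the smallest p. Other genes were named outside that rule, and only some of them are marked. Alternatives were a replicate block, each array left out, array centring on the median or on 18 hybridization control probe sets, a filter at level 4, an ordinary t statistic, a variance trend over the level class, probe sets without the x, s and a suffixes, the mean of all probe sets, and calls by a 1.5-fold difference at an unadjusted p under 0.05.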

Additional observations from a re-analysis of the deposited data

How the results depend on the processing

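Counts of calls moved with the test used, while Fn1 as a gene stayed between -1.35 and -1.42 with each array left out in turn. Against 676 probe sets and 669 genes called, the fit with the replicate block called 79 and 328, the crossed block, added after the data were seen, 0 and 0 (8212 and 3972 at an unadjusted p under 0.05), and the ordinary t statistic 1 and 0 (2907 genes at an unadjusted p under 0.05). Of the members, 4 probe sets fell and 2 rose. With the replicate block 0 and 0 did, and of genes 3 fell and 0 rose, against 4 and 1. The crossed block and the ordinary t statistic gave 0 for all 4 member counts. Each array left out in turn gave 0 for every count of probe sets, genes and members (0 to 0), with 2483 to 3100 genes at an unadjusted p under 0.05. The deviations of arrays with the same number correlated at -0.099, or -0.16 at level 4 or above, so the numbers give no sign of pairing. Calls rose at level 4 or above (1321 probe sets, 1093 genes, 2 member genes higher), with a variance trend over the level class (1501 and 1149; member probe sets 7 lower and 5 higher, 2 member genes higher), by a 1.5-fold difference at an unadjusted p under 0.05 (1136 probe sets) and after centring on the hybridization controls (3290 and 2766; 6 member probe sets and 3 member genes higher).

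That last centring moved the list medians to 0.082 (relatives), 0.13 (receptors) and 0.14 (proteases). It turned the sign of Sparc as a gene (0.15), of Sparc 1448392_at (0.14) and 1416589_at (0.15), of Tnc 1456344_at (0.14) and of Vcan 1459767_x_at (0.14). With 1 array left out, Sparc ran from -0.057 to 0.0056 as a gene, 1448392_at from -0.067 to 0.011 and 1416589_at from -0.047 to 0.00061, turning without CAS replicate 2. The gene also turned with the mean of all probe sets (0.044). None of these had been called, and the cause was not tested. No other member value changed sign under any alternative run.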
